A study of Mus musculus with 8 samples.

Results

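Cochlear neurons were picked from 8 libraries of single cells of the mouse organ of Corti, the sensory epithelium of the cochlea, with its hair cells (HCs) and supporting cells (SCs). A cell was counted as a neuron when it had at least 500 detected genes, under 25% of its unique molecular identifiers (UMIs, which count each captured transcript once) from mitochondrial genes, and at least 1 UMI of 5 or more of the 7 neuronal genes Nefh, Nefl, Nefm, Snap25, Stmn3, Cplx1 and Sncb. It also had to lack UMIs of Pou4f3, a HC transcription factor, and of Ptprc, which encodes the leukocyte antigen CD45. Of 8061 barcodes, 6023 passed the first 2 conditions and are called kept cells, and 101 of these (1.68%) were neurons. In every group the mice carried Fgfr3iCre+, a tamoxifen-dependent Cre driven in Deiters' and pillar SCs, the Cre-dependent transgene Atoh1-HA+, the HC reporter Chrna9-GFP+ and the Cre reporter Rosa26-CAG-loxP-stop-loxP-tdTomato+. Coch + Tmx P26 (3 libraries) and Coch + Tmx P33 (2 libraries) were taken at postnatal days 26 and 33 from mice given tamoxifen at days 12 and 13. Coch P12 (2 libraries) and Coch P33 (1 library) had no tamoxifen, and their tissue was taken at days 12 and 33. This Cre is directed to SCs and not to neurons, so an induced neuron here means a neuron from an induced cochlea. The labels do not say how many mice a library holds or whether replicates came from separate mice, while the study describes its replicates as biological. The study also describes an equal number of replicates in every group, which differs from the library numbers given by the labels. The p-values measure the spread between these libraries.

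Spiral ganglion neurons carry the signal of the HCs to the brainstem. Most are type I neurons, which contact inner HCs, release glutamate, are wrapped by Schwann cells and satellite glia, and are commonly divided into Ia (rich in Calb2), Ib (Calb1) and Ic (Lypd1 and Pou4f1) subtypes. The few type II neurons contact outer HCs and are marked by peripherin (Prph). Their cell bodies lie in the ganglion beside the organ of Corti, so their number in such a preparation also depends on the dissection.

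The libraries held 3972800 to 13423524 UMIs and 502 to 1382 kept cells. Neurons were deep cells, with a median of 22280 UMIs (2477 to 65679), against medians of 3538 to 8751.5 UMIs among the other kept cells of each library. No 2 libraries shared more than 3 barcodes, no barcode was shared between neurons of different libraries, and the barcodes of 2 neurons also occurred in another library. Atoh1, the induced gene, was at 90.5 to 524 CPM (UMIs of the gene per 1000000 UMIs) over all kept cells in 4 induced libraries and at 17.5 to 23.7 CPM in the 3 uninduced ones. The library labelled Coch + Tmx P26 replicate 3 had 12.3 CPM, which goes against its label, and it gave only 2 of the 101 neurons. Its group also holds more libraries than any other, unlike the equal replication described above. Its values are given under its label, and whether that label is right was not tested. Xist, the X-inactivation RNA, was at 0.21 to 1.46 CPM in the other kept cells of Coch + Tmx P26 replicate 1, Coch + Tmx P33 replicate 2 and Coch P12 replicate 2 and at 906 to 1407 CPM in those of the other 5 libraries, so it differed between replicates of each replicated group.

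The 101 cells fell into 2 kinds. All 7 markers were present in 93, with 47 to 922 marker UMIs per cell (7598 to 23819 CPM). The other 8 had 5 or 6 markers, all came from Coch P33, and held 5 to 11 marker UMIs (76.1 to 252 CPM) at 27759 to 65679 UMIs per cell, with at most 3 UMIs of any 1 marker. These 8 cells went against the label on genes the rule did not use. Tubb3, neuronal tubulin, had a UMI in 1 of 8 against 93 of 93, and the RNA-binding protein gene Elavl4 in 0 of 8 against 92 of 93. Their summed level of Gjb2, the SC gap junction gene connexin 26, was 764 CPM against 10.6 CPM, and that of Otor, a cochlear fibrocyte gene, 1907 CPM against 47 CPM. Against the other Coch P33 cells they were led by Fxyd2 (a sodium pump subunit), the potassium channel genes Kcnk3 and Kcnk2, and fibronectin, Fn1. Just outside the rule, 21 cells without Pou4f3 or Ptprc UMIs had 4 markers (19 of them from Coch P33, 92.1 to 884 marker CPM), and 9 cells with at least 5 markers were left out for a Pou4f3 or Ptprc UMI. The 8 cells are therefore described by their rule only. They held 37.7% of the UMIs of the Coch P33 neurons, so the level there of a gene that they lack is 1.61-fold higher without them. Unless stated, ranges of levels over libraries are therefore those of the 93 neurons with all 7 markers, and counts of neurons with a UMI are out of all 101 cells meeting the rule. Such counts can thus include these 8 cells.

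**Figure D1:**
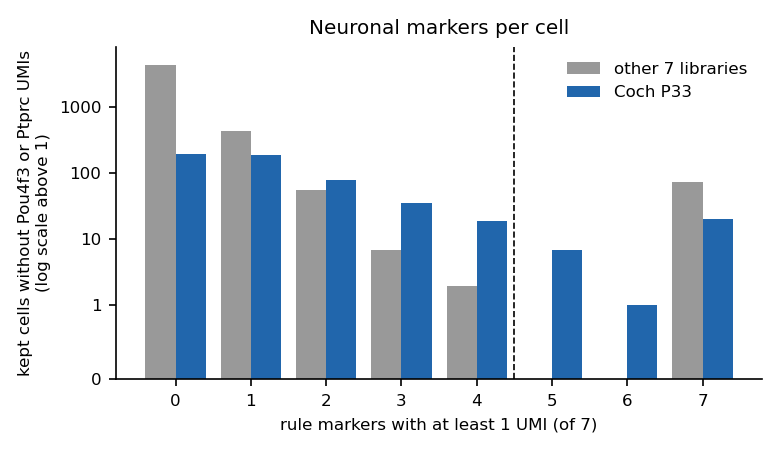
Number of kept cells without Pou4f3 or Ptprc UMIs (y axis, log scale above 1) by how many of the 7 neuronal markers had a UMI (x axis), with bars for Coch P33 and for the other 7 libraries and a dashed line at the rule. Counts drop from 4450 cells with no marker to 7 and 1 cells with 5 and 6, all from Coch P33, and rise to 93 cells with all 7.

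Because marker UMIs chose the cells, all levels of neurons against other cells below are descriptions without a test. Levels are CPM of the UMIs summed over the cells of a class in 1 library, and log2 ratios add 10 CPM to both levels. Counting only transcript ends, this assay does not scale a level with gene length. The 3 neurofilament genes were at 2835 to 3816 (Nefh, chromosome 11, 4938754 to 4948064 of GRCm38.p6), 1890.5 to 3030.5 (Nefl) and 1362 to 2253 CPM (Nefm) over the 8 libraries, and at no more than 63.7 CPM in other kept cells. With its 8 cells of 5 or 6 markers included, Coch P33 stood lower, at 2068, 1231 and 1003 CPM. Snap25, a component of the vesicle fusion machinery, was at 2241 to 4202 CPM, and Cplx1, which clamps fusion until calcium arrives, at 1481 to 2262 CPM.

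Outside the rule, the 25 genes with the largest ratios among those found in at least 30% of neurons were led by the long noncoding RNAs Snhg11 (log2 ratio 6.97) and Meg3 (6.63), the microtubule-associated Map1a, the neuroendocrine protein gene Pcsk1n, and Ndrg4. Tubb3 was detected in 94 neurons, at 1054, 949 and 915 CPM in Coch + Tmx P26, 952 and 966 CPM in Coch + Tmx P33, 700.2 and 777 CPM in Coch P12 and 517 CPM in Coch P33, where the 20 cells with all 7 markers were at 827 CPM. Slc17a7, the vesicular glutamate transporter VGLUT1, was at 757, 732 and 858 CPM, 594 and 746 CPM, 476 and 653 CPM and 578 CPM in the same groups (925 CPM in Coch P33 with all 7 markers). No other-cell level of Tubb3 or Slc17a7 exceeded 22.3 CPM. Synaptotagmin 2 (Syt2), the potassium channel Kcnc1, the acid-sensing channel Asic3, the calcium sensor Vsnl1 and the cell adhesion genes Cntnap5a, Adam23 and Thy1 were also among the 25. With all 7 markers required, 24 of the 25 stayed in this set and Mt3, a metallothionein, came 26th. To see how far free RNA could give such counts, every cell was thinned to 2000 UMIs: Tubb3 was then found in 82 of 101 neurons and in 3 of 495 kept cells with a Ptprc UMI, and Slc17a7 in 74 and 1 (median depths before thinning 22280 and 6582 UMIs).

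**Figure D2:**
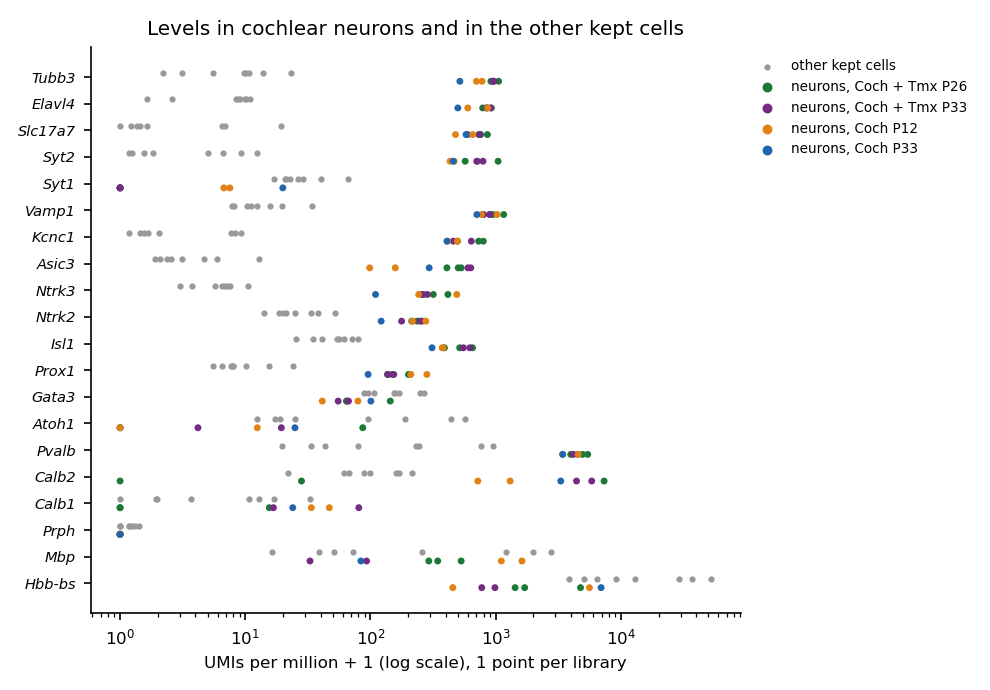
Levels (CPM plus 1, log axis) of 20 genes in all 101 neurons, coloured by group, and in the other kept cells (grey), 1 point per library. For Tubb3, neurons lay between 517 and 1054 CPM and other cells at or below 22.3 CPM.

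Of 13470 genes with at least 100 UMIs in kept cells, 19.7% were higher in neurons in all 8 libraries and 26.5% lower, with a median log2 ratio of -0.12, all from the 101 cells. The lists that follow are to be read against those shares. Their counts of genes higher or lower in all 8 libraries were the same with all 7 markers required, except that 5 rather than 4 stromal genes were then lower. Of 18 neuronal cytoskeleton genes 11 were higher in all 8 libraries and 3 lower. Kinesin heavy chains Kif5a (255 to 500.3 CPM, 1.26 to 8.08 in other cells) and Kif5c, the ubiquitin hydrolase Uchl1 (499 to 1107 CPM) and the microtubule regulator Stmn2 (520.2 to 915 CPM) were on the high side. The 3 that were lower included Stmn1, at 57.2 to 124 CPM against 369 to 633 CPM, and Gap43, a growth cone protein. Gap43 was detected in 14 of the 101 cells, 11 of them with all 7 markers.

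Of 21 genes of synaptic vesicles and release, 16 were higher in all 8 libraries and 2 lower (median log2 ratio 4.21). Paralogues of the release machinery separated. Syt2, the fast calcium sensor, was at 431 to 1043 CPM in neurons and at no more than 11.4 CPM elsewhere, whereas Syt1, a sensor of the same family, was found in 8 neurons, 4 of them with all 7 markers, and was lower in neurons in all 8 libraries (0 to 6.53 CPM against 16.1 to 65.6 CPM). Vamp1, a vesicle SNARE, was at 769 to 1158 CPM against 6.83 to 32.9 CPM. Its paralogue Vamp2 was at 30.4 to 97.6 CPM and was lower in neurons than in other cells (53.2 to 115 CPM) in 6 of 8 libraries. The vesicular glutamate transporter VGLUT2, Slc17a6, was detected in 68 neurons at 111 to 271 CPM, against at most 3.93 CPM in other cells.

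Among 21 voltage-gated channel and sodium pump genes detected, 16 were higher in all 8 libraries and none was lower in all 8. They included the axonal sodium channels Scn8a (268 to 524 CPM) and Scn1a (104 to 307 CPM) with the subunit Scn4b, and the low-threshold potassium channels Kcna1 (496 to 700.2 CPM) and Kcna2 (368 to 1030.3 CPM). Hcn2, a channel of the hyperpolarisation-activated current, was detected in 87 neurons. Scn9a, a sodium channel of pain fibres, was found in 2.

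Of 20 transmitter receptor genes, 11 were higher in all 8 libraries. The AMPA receptor subunits Gria2 (148 to 316 CPM), Gria3 (71.5 to 163 CPM) and Gria4 (42.9 to 119 CPM) were present and Gria1 had no UMI. The obligatory NMDA receptor subunit Grin1 was found in 88 neurons, Grin2b in 1 and Grin2a in none. Metabotropic GABA receptor genes Gabbr1 and Gabbr2 were detected in 87 and 77 neurons, 81 and 76 of them with all 7 markers. Gabra2, a subunit of ionotropic GABA receptors, had none. A count of 0 of 101 allows up to 2.97% of such cells to have a UMI, for counting error only. Of the neurotrophin receptors, Ntrk3 (TrkC, the receptor of neurotrophin-3) was at 168 to 488 CPM, Ntrk2 (TrkB, the receptor of BDNF) at 176 to 275.5 CPM and Ngfr (p75) at 14.3 to 163 CPM, each higher than other cells in all 8 libraries.

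Of 18 transcription and RNA-binding factors 10 were higher in all 8 libraries and 3 lower. Isl1 (chromosome 13, 116298270 to 116309688), a LIM-homeodomain factor of sensory neurons and of the otic epithelium, was detected in 94 neurons. Its level was 652, 389 and 515 CPM in Coch + Tmx P26, 621 and 551 CPM in Coch + Tmx P33, 373 and 379 CPM in Coch P12 and 309 CPM in Coch P33 (488 with all 7 markers), above the 24.6 to 77.8 CPM of other kept cells in every library. Prox1, Pou4f1, Runx1 and the nuclear receptor gene Esrrg were also higher in all 8. Gata3, which is active both in spiral ganglion neurons and in the sensory epithelium, was lower in neurons in all 8 libraries, at 40.2 to 143 CPM against 87.7 to 267 CPM. Neurod1, a factor of developing neurons, was found in 4 neurons, and Insm1 and Tlx3 in none.

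The same factors were set beside kept cells with at least 2 Pou4f3 UMIs, in the 6 libraries with 5 or more of them. Isl1 was higher in neurons in 6 of 6 libraries (373 to 652 CPM against 134 to 352 CPM), as were Prox1 and Pou4f1. The HC lineage factors Atoh1, Insm1, Lhx3 and Barhl1 and also Gata3 (40.2 to 78.4 CPM against 141 to 486 CPM) were lower in 6 of 6. Pvalb, a calcium buffer, was shared, at 3432 to 5431 CPM in neurons and 1925 to 6646 CPM in Pou4f3-positive cells, so those ranges overlapped. Since the rule required 0 Pou4f3 UMIs, this contrast is a description.

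Atoh1 itself was seen in 24 of the 101 cells meeting the rule, with 40 UMIs in all, and in 19 of the 93 with all 7 markers, with 31 UMIs. Its level in neurons was 0, 0 and 85.8 CPM in Coch + Tmx P26, 18.4 and 3.19 CPM in Coch + Tmx P33, 11.5 and 0 CPM in Coch P12 and 23.9 CPM in Coch P33 (24 CPM with all 7 markers). Induced and uninduced libraries thus overlapped, and the highest value rests on 6 UMIs in the 2 neurons of the library labelled Coch + Tmx P26 replicate 3. Fgfr3, whose promoter drives the Cre, was found in 10 neurons, 8 of them with all 7 markers, at 0 to 11.5 CPM against 10 to 72.5 CPM in other cells.

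Nuclear genes of oxidative phosphorylation were higher in neurons throughout: 18 of 18 in all 8 libraries, with a median log2 ratio of 1.29. Examples are the cytochrome oxidase subunit Cox5a (1257 to 2521 CPM against 203 to 386 CPM) and the ATP synthase subunit Atp5g1 (1656 to 2129 CPM against 271 to 444 CPM). The median share of mitochondrial UMIs per neuron was 3.05% to 10.5% over libraries, against 3.03% to 4.28% in other cells. Of 10 calcium-binding protein genes 4 were higher in all 8 libraries, among them Pvalb, Calm2 and Vsnl1, and Pcp4 was lower in all 8.

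Immediate early genes went the other way, with 11 of 14 lower in neurons in all 8 libraries and a median log2 ratio of -2.73. Over the 101 cells, Fos was at 14.3 to 316 CPM in neurons and at 558 to 956 CPM in other cells, and Junb at 3.19 to 587 CPM against 626 to 1201 CPM. In both genes the highest neuron value was that of Coch P33, where the 20 cells with all 7 markers had 56 CPM of Fos and 41.6 CPM of Junb. Of 10 axon injury response genes none was higher in all 8 libraries and only Jun was lower in all 8. Atf3, the stress factor that injured neurons switch on, was detected in 23 neurons (20 with all 7 markers) and Sprr1a in none. Atf3 was at 0 to 19.1 CPM, against 4.96 to 15.9 CPM in other cells. All 17 genes of a mature neuron list were higher in all 8 libraries, but 3 of them belong to the rule. Of 14 axon growth and immature neuron genes 3 (Dcx, Crmp1 and Tubb3) were higher in all 8 and 6 lower.

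Transcripts of other cell types were also counted in neurons. Of 15 Schwann and satellite glia genes, each of the 10 Coch P12 neurons had at least 7 with a UMI (median 9.5), whereas 14 of the 91 later neurons had 5 or more (median 2). Mbp, encoding myelin basic protein, had a UMI in 10 of 10 and 51 of 91. The summed level of the 15 genes was 5137 and 3122 CPM in Coch P12 neurons and 175 to 1004 CPM in the later libraries, without overlap. Of the glial genes, only Gldn, encoding gliomedin, was higher in neurons in all 8 libraries (54.2 to 196 CPM against 0.36 to 5.7 CPM). Immune genes (10 of 10 lower in all 8), hemoglobins (4 of 4), SC genes (8 of 11) and stromal genes (4 of 6) were mostly lower in neurons than in other kept cells. Over all 101 cells, the summed hemoglobin level was 700.2 and 12509 CPM at P12 and 1349 to 13599.7 CPM later, so the ages overlapped. The immune sum was 34.4 to 389 CPM. The SC sum was 9.04 to 821 CPM and the stromal sum 12.7 to 631 CPM, where Coch P33 had 821 and 507 CPM, or 110.4 CPM each with all 7 markers. Of 13 HC genes 8 were lower in all 8 libraries, and Slc26a5, Myo15, Strc, Chrna9 and Chrna10 had no UMI in any neuron. The endothelial sum was at most 28.9 CPM.

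Neurons differed among themselves in Lypd1 (chromosome 1, 125867622 to 125913175) and Calb2 (chromosome 8, 110142526 to 110168212, encoding calretinin), genes of the Ic and Ia subtypes. The 93 neurons with all 7 markers were split by which of these 2 genes had more UMIs, a split chosen after their values were seen, so it is described without a test. Lypd1 was the higher in 33 neurons and Calb2 in 60. At P26 and P33, Lypd1 was at 2587 to 8003 CPM in the 28 Lypd1-higher neurons and at 0 to 1244 CPM in the 55 Calb2-higher neurons. The 2 ranges did not overlap, but the split used these same Lypd1 values, so the difference follows in part from it. Of the 55, 44 had no Lypd1 UMI, while 20 of the 28 had Calb2 UMIs (0 to 1840 CPM). Single cells held both genes within 4-fold of each other in 6 of 83 cases.

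In the 10 Coch P12 neurons, both genes were detected in 9 and were within 4-fold of each other in 5. Their Lypd1 level ran from 0 to 1575 CPM, below each of the 28 later Lypd1-higher neurons, while their depth was 19758 to 58750 UMIs against 2477 to 45022 UMIs in those 28. Ordered by Lypd1, the 7 neurons of replicate 1 had 0, 89.7, 152, 492, 548, 647 and 680 CPM of Lypd1 with 4481, 1136, 1215, 1551, 274, 324 and 544 CPM of Calb2. Replicate 2 had 3 neurons, with 1223, 1379 and 1575 CPM of Lypd1 and 241, 306 and 1800 CPM of Calb2. The 10 also held 890 to 2077 CPM of Mbp, against medians of 47.9 CPM in the later Lypd1-higher and 23.1 CPM in the later Calb2-higher neurons, and the part of transcripts of other cells in the Lypd1 and Calb2 values was not tested. No test across ages was made on this split.

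**Figure D3:**
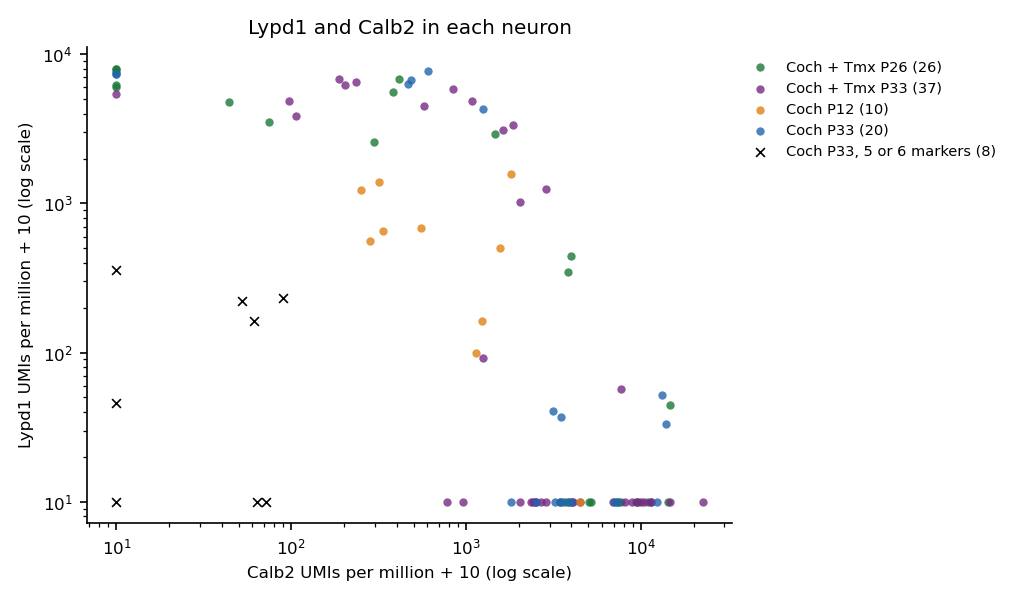
Lypd1 against Calb2 (CPM plus 10, log axes) in the 93 neurons with all 7 markers, 1 point per neuron coloured by group, with the 8 cells of 5 or 6 markers as crosses. P26 and P33 neurons lie in 2 arms with 6 of 83 within 4-fold of equality, and 5 of the 10 Coch P12 neurons lie within 4-fold of it.

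Several other genes of the subtype lists followed the split, in counts that pool the cells of several libraries. At P26 and P33, Pou4f1, a POU factor of Ic neurons, was detected in 25 of 28 Lypd1-higher and 15 of 55 Calb2-higher neurons. Grm8, a metabotropic glutamate receptor gene, was found in 18 of 28 and 1 of 55. B3gat1, which makes the HNK-1 carbohydrate, went the other way with 4 of 28 and 48 of 55, as did Calb1 (calbindin) with 1 of 28 and 23 of 55, and Rxrg with 0 of 28 and 16 of 55. Median depths were 20019.5 and 21950 UMIs. Runx1, listed with Ic, was less divided, at 25 of 28 and 37 of 55. By level, Pou4f1 was higher in the Lypd1-higher class in 4 of the 5 libraries with at least 3 neurons of each class. In Coch + Tmx P26 replicate 1 it was at 0 CPM in that class and at 37.8 CPM in Calb2-higher neurons. Pcdh20, listed with Ia, was found in 8 neurons with all 7 markers and was higher in the Lypd1-higher class in 1 of these 5 libraries. Calb1 UMIs were few (28 neurons in all), and no Ib class was called.

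In the 5 libraries with at least 3 neurons of each class, 7007 genes other than Lypd1 and Calb2 were found in at least 30% of these neurons. Of these, 6 (0.0856%) were at least 2-fold higher in the Lypd1-higher class in all 5 libraries: Ahnak2, Sphkap, Tmem47, Magi1, Rph3a (rabphilin, a vesicle protein) and Lemd1. Another 6 (0.0856%) were at least 2-fold lower: Calb1, B3gat1, Tbc1d7, Lancl3, Atg7 and Colq. Sphkap was at 208, 140, 202, 41.1 and 157 CPM in the Lypd1-higher neurons of Coch + Tmx P26 replicate 1, Coch + Tmx P33 replicates 1 and 2, Coch P12 replicate 1 and Coch P33, and at 0, 7.31, 0, 9.87 and 4.08 CPM in the Calb2-higher neurons of the same libraries. B3gat1 was at 0, 18.7, 11.2, 41.1 and 0 CPM and at 158, 146, 160.3, 128 and 202 CPM in the same order. A difference in every library was the condition for naming these 2 genes, so it is no added evidence for the classes. The difference was smallest in Coch P12 replicate 1, which had 3 and 4 neurons in the classes. The VGLUT1 gene Slc17a7 was lower in the Lypd1-higher class in 5 of 5 libraries (median log2 difference -0.38) and VGLUT2, Slc17a6, higher in 5 of 5 (0.55). Isl1 and Snap25 differed by medians of 0.01 and 0.04.

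The classes were unevenly spread over libraries. Lypd1-higher neurons were 3 of 18, 6 of 6 and 2 of 2 in Coch + Tmx P26, 6 of 19 and 5 of 18 in Coch + Tmx P33, 3 of 7 and 2 of 3 at P12 without tamoxifen, and 6 of 20 in Coch P33. The summed Calb2 level of all neurons was 7340.3, 27.1 and 0 CPM in Coch + Tmx P26, 5845 and 4421 CPM in Coch + Tmx P33, 1303 and 719 CPM in Coch P12 and 3308 CPM in Coch P33. Lypd1 was at 504, 6191 and 7961 CPM, then 1591 and 1409, then 367 and 1385, then 844 CPM. Calb2 was highest in 1 Coch + Tmx P26 library and lowest in the other two. Of 6 genes listed for type II neurons, Prph, Th and Plk5 had no UMI in the 101 cells and Etv4 was found in 3, 1 of them with all 7 markers. Ngfr (values above) and Tle4 (58.2 to 100.1 CPM against 28.8 to 53.2 CPM) were each found in 72, of which 72 and 67 had all 7 markers. Both genes were higher than in other cells in all 8 libraries.

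The share of neurons among kept cells was 2.25% (95% exact binomial interval 1.34 to 3.53), 1.05% (0.388 to 2.28) and 0.339% (0.0411 to 1.22) in the Coch + Tmx P26 libraries. In Coch + Tmx P33 it was 3.78% (2.29 to 5.85) and 2.51% (1.49 to 3.94). Coch P12 had 0.507% (0.204 to 1.04) and 0.341% (0.0703 to 0.992), and Coch P33 had 4.82% (3.23 to 6.89), or 3.44% with all 7 markers required. These intervals cover counting error only. P12 libraries were at the low end, but the 2 neurons of the library labelled Coch + Tmx P26 replicate 3 gave an equally low share.

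Whether induction went with a different share of neurons was asked first. Every induced library was P26 or P33, while 2 of the 3 uninduced ones were Coch P12. Age and induction can therefore not be told apart in this contrast. Induced libraries had a mean share of 1.99% ± 1.34 (SD, n = 5) and uninduced ones 1.89% ± 2.54 (n = 3). The means were 0.0984 points apart, with p = 1 in a two-sided exact permutation test whose smallest possible p is 0.0357. Its sign turned when 1 library was left out, from -0.676 without Coch P12 replicate 2 to 1.56 without Coch P33, and was 0.557 with all 7 markers required. Without the library labelled Coch + Tmx P26 replicate 3 the induced mean was 2.4% ± 1.12 (n = 4) and the difference 0.51 points (two-sided exact permutation p = 0.743, smallest possible 0.0571). The later libraries, all ages and treatments after P12, had 2.46% ± 1.66 (n = 6) against 0.424% ± 0.117 (n = 2) at P12, a difference of 2.04 points (two-sided exact permutation p = 0.214). The smallest p this design allows is 0.0714, so it cannot pass 0.05. Fewer neurons in the tissue and fewer neurons recovered by dissection and dissociation cannot be told apart in these shares.

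**Figure D4:**
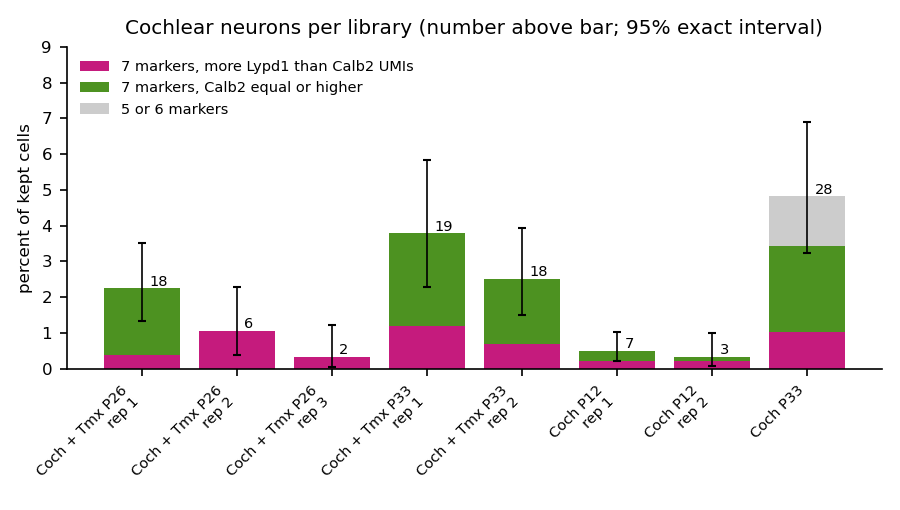
Share of neurons among kept cells (percent, y axis) in each of the 8 libraries, with exact binomial 95% intervals for counting error, the number of neurons above each bar, and the bar divided into neurons with more Lypd1 UMIs, neurons with more Calb2 UMIs and cells with 5 or 6 markers. Shares run from 0.339% to 4.82%, with both Coch P12 libraries at or below 0.507%.

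For age, UMI sums of the neurons of each library were compared between the later libraries and Coch P12 with edgeR's quasi-likelihood test and Benjamini-Hochberg adjustment. No Coch P12 library was induced, and all later libraries but Coch P33 were, so age and induction cannot be told apart in this comparison. The planned minimum of 10 neurons per library left no Coch P12 library. The planned fallback of 5 left too few Coch P12 libraries (7 and 3 neurons), and the plan then called for no test. Against that plan, a minimum of 3, chosen after the counts were seen, was used (5 later and 2 Coch P12 libraries). As the rule defines neurons, 0 of 6017 genes tested (0%) had an adjusted p under 0.05, 657 (10.9%) had an unadjusted p under 0.05, and DESeq2 called 29. Restricting the neurons to those with all 7 markers, a choice made after seeing the data that takes the 8 cells out of Coch P33, gave 136 of 5972 genes (2.28%) past the same threshold, 39 higher and 97 lower at later ages, with 920 (15.4%) at an unadjusted p under 0.05. Induced libraries alone against Coch P12 gave 128 genes. Without Coch P12 replicate 1 (7 neurons) 2 genes were called, Atp5o and Mbp, and without replicate 2 (3 neurons) there were 196. Both fits have a single P12 library, which is assumed to vary like the other groups. The following values are those of the 93 neurons with all 7 markers.

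Asic3, an acid-sensing ion channel of sensory neurons, had the lowest p among the genes that rose. It was at 97.6 and 157 CPM in Coch P12, at 501, 407 and 529 CPM in Coch + Tmx P26, at 631 and 599 CPM in Coch + Tmx P33 and at 471 CPM in Coch P33 (log2 fold change 2.04, SE 0.29, edgeR adjusted p = 0.000951). The groups did not overlap, and other kept cells had at most 11.8 CPM. In the neurons as defined by the rule its adjusted p was 0.0893 by the same edgeR test, at 1.95. Of the 39 rising genes 8 had a level in other P12 cells under 10% of that in P12 neurons, among them Asic3, Kcnab3, a potassium channel subunit gene, Panx2, a pannexin gene, Dusp8, Vwa7 and Gm13629. The others with the lowest p were Atp6v1g1 (a proton pump subunit), Cib2, Eif4a2, Cd164, Cystm1, Samm50 and Cox17 (both mitochondrial), Tspan7, Tmod1 and S100a8. S100a8, a neutrophil gene, was at 0 and 6.53 CPM in Coch P12 neurons and 28.6 to 150 CPM later. In other kept cells it also rose, from 133 and 217 CPM at P12 to 1216 to 5896 CPM later.

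Of the 97 genes that fell, 45 had a higher level in the other P12 cells than in P12 neurons and 14 had a level there under 10% of it. The mean level in other kept cells moved in the same direction for 73 of the 97 falling genes and 31 of the 39 rising ones. It moved at least 2-fold for 16 and 7 of these. None of these counts, nor the 8 of 39 above, was made over all genes tested. The 45 genes higher in other P12 cells included matrix and glial genes. Col2a1, cartilage collagen, was at 189 and 52.3 CPM in Coch P12 neurons, at 0 in 5 later libraries and at 1.6 CPM in Coch P33. Other kept cells had 676 and 779 CPM at P12 and 28.1 to 135 CPM later. Of the 8 glial genes tested 5 fell, among them Pmp22, Mbp, Prx and Cnp, in the same libraries where glial transcripts were found in every P12 neuron. Over all 5972 genes tested, 97 fell. Mbp was at 1108 and 1620 CPM in Coch P12 neurons and 31.9 to 529 CPM later (log2 fold change -3.15, edgeR adjusted p = 0.00101). In other cells it was at 15.3 CPM in Coch P12 replicate 1 and 2776 CPM in replicate 2. Whether glial RNA in neuron droplets accounts for these values was not tested, since leaving out neurons with 5 or more glial genes leaves no P12 neuron.

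Neuron-restricted genes among those that fell were led by Camk4, a calcium/calmodulin-dependent kinase gene. It was at 654 and 333 CPM in Coch P12, at 148, 127 and 229 CPM in Coch + Tmx P26, at 121 and 63.7 CPM in Coch + Tmx P33 and at 83.2 CPM in Coch P33 (log2 fold change -2.22, SE 0.29, edgeR adjusted p = 0.000828), with no overlap and at most 1.97 CPM in other cells. Frmd3 fell from 396 and 261 CPM to 68.8 to 128 CPM, Hapln1, a perineuronal matrix link protein gene, from 408 and 307 CPM to 71 to 229 CPM, and Gjd2, which encodes the neuronal gap junction protein connexin 36, from 189 and 157 CPM to 21 to 72.8 CPM. The adhesion gene Cadm2, the transporter gene Slc6a15 and the POU factor gene Pou3f2 were also in this set. Dnmt3a, a DNA methyltransferase gene, fell from 471 and 366 CPM to 72 to 243 CPM. Other kept cells had it at 85.9 to 136 CPM at P12 and at 29.2 to 54.2 CPM later. Among the 12 falling genes of lowest p were further Ybx1, Sparc, Emilin2, Kcnk3, Rarres1 and Igfbp2.

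**Figure D5:**
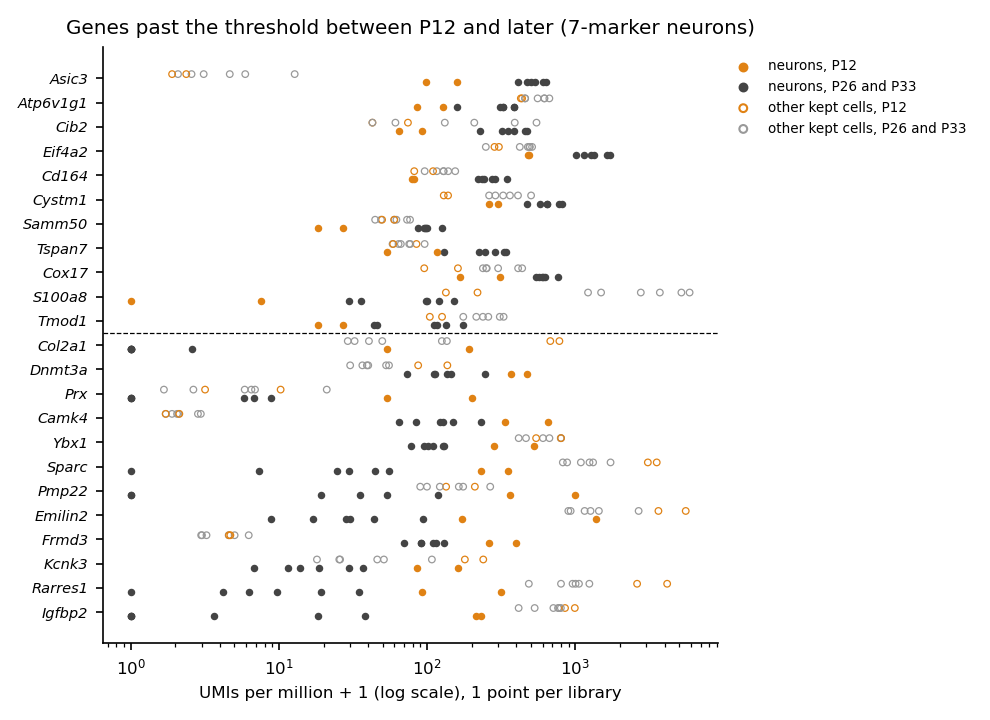
Levels (CPM plus 1, log axis) of 11 of the 12 genes that rose (above the dashed line) and the 12 that fell with the lowest p between P12 and later ages in neurons with all 7 markers (filled points), and in the other kept cells (open points), 1 point per library. Asic3 lies at 97.6 and 157 CPM at P12 and 407 to 631 CPM later, Camk4 at 333 and 654 CPM at P12 and 63.7 to 229 CPM later.

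Most of the neuronal lists held few calls. Over all 5972 genes 2.28% were called, so 0 calls in a list this short says little about it. At an unadjusted edgeR p under 0.05 were 43.75% of cytoskeleton, 54.5% of axon growth, 29.4% of release and 25% of channel genes, against 15.4% of all genes. Transcription and RNA-binding factors were at 16.7%, transmitter receptors at 9.09%, oxidative phosphorylation genes at 5.56% and neurotrophin receptors at 0%. None of 17 release genes, of 18 oxidative phosphorylation genes, of 11 transmitter receptors, of 3 neurotrophin receptors or of 12 transcription and RNA-binding factors passed the threshold (edgeR, all 7 markers). Of 16 channel genes 1 passed it, and Tubb2a, a tubulin gene, was the only call among 16 cytoskeleton genes (339 and 340 CPM at P12, 57.2 to 212 CPM later). Nnat, a gene of immature neurons, fell from 166 and 91.5 CPM to 2.91 to 28.6 CPM and was the only call among 11 axon growth and immature neuron genes. Its level in other kept cells was 699 and 783 CPM at P12 and 119 to 346 CPM later. Of 7 immediate early genes tested Fos and Klf2 fell, Fos with overlapping groups (235 and 52.3 CPM at P12, 14.3 to 56 CPM later). Calb2 had a log2 fold change of 2.19 and Lypd1 of 1.24, neither past the threshold. Calb2 was among the genes called when Coch + Tmx P26 replicate 2, whose 6 neurons were all Lypd1-higher, was left out.

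Between the induced ages, Coch + Tmx P33 (2 libraries) was compared with Coch + Tmx P26 (2 libraries with at least 5 neurons, since the planned minimum of 10 left 1), in a fit of 6 libraries. Of 7111 genes tested 3 (0.0422%) were past an edgeR adjusted p of 0.05, and 479 (6.74%) had an unadjusted p under 0.05. All 3 fell at P33. AY036118 was at 489 and 172 CPM in Coch + Tmx P26 and at 21 and 38.2 CPM in Coch + Tmx P33 (log2 fold change -3.65, SE 0.44, edgeR adjusted p = 0.00223). Mbp fell from 291 and 343 CPM to 92 and 31.9 CPM (-2.25, SE 0.33, edgeR adjusted p = 0.0154), and Gm10260 from 355 and 316 CPM to 139 and 76.5 CPM (-1.62, SE 0.27, edgeR adjusted p = 0.0493).

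None of the 3 was particular to neurons in its values. In the other kept cells of the same libraries AY036118 was at 456 and 154 CPM in Coch + Tmx P26 and 20.4 and 29.4 CPM in Coch + Tmx P33, Mbp at 256 and 1214 against 38.1 and 50.6 CPM, and Gm10260 at 1084 and 1130 against 519.6 and 353 CPM. AY036118 and Gm10260 are gene models whose reads may be shared with near-identical copies elsewhere, so their counts are uncertain. The 2 Coch + Tmx P26 libraries in this fit differed in class makeup (3 of 18 and 6 of 6 Lypd1-higher neurons), and Calb2 (log2 fold change 0.43) and Lypd1 (-1.06) had edgeR adjusted p of 0.944 and 0.781. Without Coch + Tmx P26 replicate 1 there were 42 calls, among them Calb2, Lypd1 and Rph3a, without Coch + Tmx P26 replicate 2 there were 69, and without Coch + Tmx P33 replicate 1 there were 24. Each of these fits has 1 library in the arm concerned, assumed to vary like the other groups, and without Coch + Tmx P26 replicate 1 that arm is 6 neurons, all Lypd1-higher.

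Induced and uninduced neurons of the same age could be set side by side only at P33, where the uninduced group is 1 library, so no test was made. Genes were counted when both Coch + Tmx P33 libraries differed from Coch P33 by at least 2-fold in the same direction with separate 95% Poisson intervals, which cover counting error only. As the rule defines neurons, 83 genes were higher and 358 lower in Coch + Tmx P33 (8.41% of 5246). With all 7 markers these became 11 higher and 32 lower (0.991% of 4341), so the first count depended on the 8 cells described above.

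Among the 11 higher genes, Rims3, a protein of the release site, was at 118 and 124 CPM in Coch + Tmx P33 and 57.6 CPM in Coch P33 with all 7 markers. Stmn4 was at 279 and 194 CPM against 76.8 CPM (56.6 to 102), Cit, citron kinase, at 108 and 102 CPM against 19.2 CPM, and Kcnip2, a subunit of A-type potassium channels, at 84.1 and 86.1 CPM against 30.4 CPM. Ptprn, a dense-core vesicle protein gene, Gldn and Marcksl1 were also higher. Among the 32 lower genes were hemoglobins, with Hbb-bs at 773 and 985 CPM against 5205 CPM, the secreted protein genes Apod, Ptgds and Otos, S100a1, and AY036118 at 21 and 38.2 CPM against 888 CPM. In the other kept cells of Coch P33 AY036118 was at 871 CPM, and 4 hemoglobin genes together were at 142842 CPM against 12894 and 15190 CPM in those of Coch + Tmx P33. How far such library-wide differences enter the other genes was not tested.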

How the data were processed

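Cells of 8 mouse organ of Corti libraries were profiled with 10x Genomics 3′ chemistry. The authors aligned the reads to mm10 with Cell Ranger (version not given in the sources used here), and the deposited values are unnormalised UMI counts per gene and barcode, 1 matrix per library, 27998 genes. Hemoglobin and other free RNA was not subtracted. Neurons were selected by the marker rule, and raw counts were summed per library and compared by the quasi-likelihood test of edgeR 4.0.16 in R 4.3.3, after filterByExpr and TMM scaling, with all groups with enough neurons in 1 fit and Benjamini-Hochberg adjustment. DESeq2 1.42.0, other scalings, filters, marker numbers and left-out libraries were alternatives. Files were read and cells scored with Python 3.11.15 and scanpy 1.11.5. Doublets were not removed: scrublet at 0.8% per 1000 barcodes marked 41 kept cells and no neuron. Scripts were tested on simulated data. The planned minimum of 10 neurons per library left too few libraries for both comparisons. The planned fallback of 5 was used for P33 against P26. For age the fallback also left too few, where the plan called for no test, and 3 was used.

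The members, the gene lists and the tests were chosen with earlier results of these data known. Named genes were the 7 markers, the listed genes, the 25 largest ratios to other kept cells, and up to 12 genes per direction of lowest p in each edgeR comparison. The leading genes of the 8 cells with 5 or 6 markers, the genes of the Lypd1 and Calb2 classes, the genes of the P33 comparison, and Kcnab3, Panx2, Dusp8, Vwa7, Gm13629, Hapln1, Gjd2, Cadm2, Slc6a15, Pou3f2, Atp5o and Otor were named after their values were seen. Coordinates are those of RefSeq genes on GRCm38.p6, the same assembly as mm10. No sequence is printed, since no comparison turns on one. Total UMIs per library set the precision, and intervals cover counting error only. Some genes that the naming rule covers are not reported here.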

Additional observations from a re-analysis of the deposited data

How the results depend on the processing

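The count of genes between later ages and P12 depended on which cells were summed. Against 0 as reported, there were 29 with DESeq2, 32 without a filter on low counts, 69 with at least 6 markers, 136 with all 7 markers (an alternative chosen after seeing the data), 1 with a minimum of 2 neurons (also chosen later), 2 with sums thinned to the smallest library, 128 with induced later libraries only and 141 with Coch + Tmx P33 only. Leaving out 1 library gave 0 to 128, the latter without Coch P33. With all 7 markers, 136 became 396 without a filter and 2 to 196 with 1 library left out: 75 and 68 without Coch + Tmx P33 replicates 1 and 2, 2 without Coch P12 replicate 1. For the P33 against P26 comparison of induced libraries, 3 became 1 with RLE scaling, 1 with DESeq2, 39 without a filter, 0 with at least 4 markers, 14 with mitochondrial UMIs under 10%, 0 with thinned sums, 0 with only the 2 groups in the fit, and 2 to 69 with 1 library left out. Fits under 10% mitochondrial UMIs, without neurons rich in glial genes and with minima of 5, 10 and 20 neurons could not be made for P12, nor minima of 10 and 20 for P33 against P26. Where leaving out a library left 1 in an arm, that library is assumed to vary like the other groups. The causes were not tested beyond the cells and libraries each alternative drops.

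The deviations of replicate 1 from the group mean in Coch + Tmx P26 and in Coch + Tmx P33 had r = 0.0413 over 5286 genes. This is 1 correlation from 2 libraries per group, so it cannot decide whether equal replicate numbers mark a shared batch. With the replicate number as a block, the replicate block fits called 8 genes for age, 141 with all 7 markers, and 12 for P33 against P26.

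The difference in the share of neurons between induced and uninduced libraries turned to -1.07 points with at least 4 markers and to -0.0127 with at least 1000 genes, and ran from -0.676 to 1.56 with 1 library left out, with negative values -0.351 and -0.0324 without Coch + Tmx P33 replicates 1 and 2, and -0.593 without Coch P12 replicate 1. The difference between later libraries and P12 kept its direction under all 15 alternatives tried (1.56 to 2.46 with 1 library left out). The P12 sums rest on 10 neurons, 7 in replicate 1 and 3 in replicate 2.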
